A study of Mus musculus with 23 samples.

Results

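*Mal*, *Tmprss11b*, *Ly6d*, *Sprr1a*, *Sprr3*, *Trp63*, *Dsg3*, *Dsc3* and *Cnfn* are 9 of the 55450 genes in the count table and were selected by their symbols. The selection rests on measured values: in an earlier comparison of these same tumors, *Mal* and *Tmprss11b* were the 2 genes past the threshold that were lower with the strain of high bile salt hydrolase (BSH) activity. The other 7 genes were set beside them because they are known from stratified squamous epithelium. The tumors therefore chose *Mal* and *Tmprss11b*. For the 9 genes, the difference between the strains in tumors is given here as a description, with no test beyond the one that chose them.

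RNA was sequenced from the colon of male C57BL/6 mice of genotype Cdx2Apcf/w. The mice were 6 to 8 weeks old at the start and ate a 60% high-fat diet (HFD). In them a Cre recombinase driven by the *Cdx2* promoter deletes the floxed copy of the tumor suppressor *Apc*. All mice had an antibiotic cocktail before colonization, then either BF BSHlow, which is *B. fragilis* 638R with an empty vector, or BF BSHhigh, which is the same strain carrying the *bsh* gene of *B. fragilis* NCTC9343. After 2 weeks of colonization there were 4 libraries of normal colon per strain, and after 12 weeks there were 4 libraries of non-tumor tissue per strain, 4 of BF BSHlow tumors and 3 of BF BSHhigh tumors. No group lacked bacteria, HFD or the *Apc* deletion, the labels do not say how many mice a library holds, and the labels and the paper differ on the dosing (2 times a week, or every 3 days) and on the library kit (stranded total RNA, or stranded mRNA).

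The 3 columns of the BF BSHhigh tumors repeat the header names of BF BSHlow tumors. They were taken as BF BSHhigh tumors because their values stand under BF BSHhigh tumors, without replicate numbers, in the study's Supplementary Data 3, and they are lettered a, b and c. Total counts lay between 12401388 and 15607513 per library in BF BSHlow colon at 2 weeks (median 15171937) and between 14816679 and 15898917 in BF BSHhigh colon at 2 weeks (median 15694072). In non-tumor tissue they lay between 13330888 and 17103225 for BF BSHlow (median 15352230) and between 13369559 and 17064730 for BF BSHhigh (median 15936516). In tumors they lay between 15271869 and 17652495 for BF BSHlow (median 16220367) and between 16470573 and 17903008 for BF BSHhigh (median 16847840). Levels are given as CPM, in which library sizes are adjusted by TMM factors. A count of 0 allows up to 3 counts, which is 0.133 to 0.283 CPM depending on the library, and this floor covers counting error only.

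The healthy colon is lined by a simple columnar epithelium, whereas skin, oesophagus and anal canal carry a stratified squamous epithelium that renews from a basal layer and flattens toward the surface. In that epithelium the transcription factor p63, encoded by *Trp63*, maintains the basal layer. The desmosomal cadherins desmoglein 3 (*Dsg3*) and desmocollin 3 (*Dsc3*) join its lower cells, and small proline-rich proteins (*Sprr1a*, *Sprr3*) and cornifelin (*Cnfn*) belong to the cornified envelope of its outer cells. *Ly6d* encodes a membrane-anchored protein of the LY6 family that is known from keratinocytes and from developing B cells. *Mal* encodes a small membrane protein of apical transport in epithelial cells that also occurs in myelin and T cells, and *Tmprss11b* encodes a transmembrane serine protease of squamous surfaces.

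The data did not bear out a squamous epithelium as a whole. *Trp63*, the defining gene, had 15 counts over all 23 libraries and 0 in 13 of them, and 1 library, BF BSHhigh tumor b with 4 counts, exceeded the floor of 3 counts. *Sprr3* had 1 count, in BF BSHlow tumor 1, and *Cnfn* had 1, 1, 2 and 1 counts in BF BSHlow tumors 2, 3 and 4 and BF BSHhigh tumor a and 0 elsewhere. The basal keratin gene *Krt5* did not exceed 0.434 CPM in any library, whereas the basal keratin genes *Krt14*, *Krt15* and *Krt17* had means of 66.3, 178 and 39.1 CPM in BF BSHlow tumors and 22.3, 20.1 and 21.8 CPM in BF BSHhigh tumors. In contrast, *Mal*, *Ly6d*, *Sprr1a* and *Dsg3* had a mean of at least 1 CPM over the 23 libraries. Of the 9 genes, 7 exceeded the floor in at least 1 library and 2, *Sprr3* and *Cnfn*, in none. Per kilobase of exon, the scale on which genes can be set side by side, the mean level over the 23 libraries was 21 CPM for *Mal*, 20.6 for *Ly6d*, 13.4 for *Sprr1a*, 0.789 for *Dsg3*, 0.112 for *Dsc3*, 0.0532 for *Tmprss11b*, 0.0149 for *Cnfn*, 0.00427 for *Trp63* and 0.00172 for *Sprr3*. That order depends on the tissue: per kilobase *Mal* was above *Ly6d* at 2 weeks (61.8 and 1.46 CPM with BF BSHlow), and *Ly6d* was above *Mal* in non-tumor tissue (15.4 and 1.92 CPM) and in tumors (35.2 and 20.9 CPM). The plot of all 9 genes by library shows this range, with *Mal* highest at 2 weeks, *Tmprss11b* seen in tumors alone and *Dsg3* highest in tumors.

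**Figure D1:**
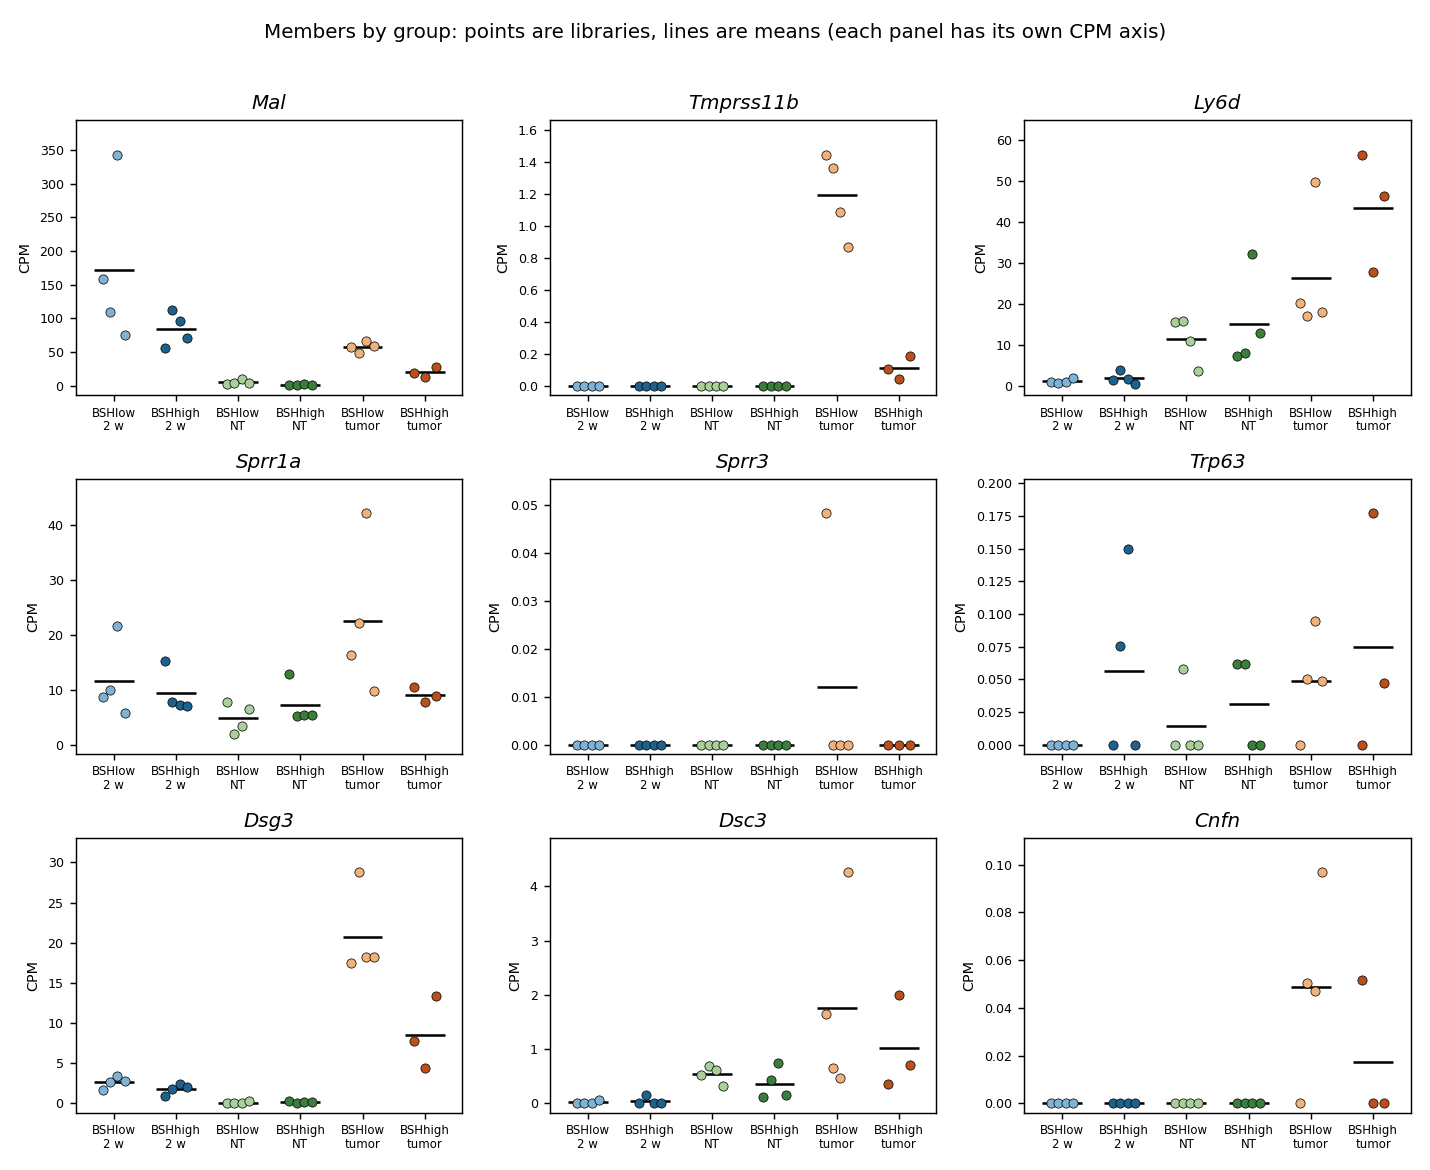
CPM of the 9 genes in each library (points) of the 6 groups, with the group mean as a line; each panel has its own vertical axis, and NT is non-tumor tissue at 12 weeks. Mean *Mal* was 172 CPM in BF BSHlow colon at 2 weeks, *Tmprss11b* had no count outside tumors, and the panels of *Sprr3*, *Trp63* and *Cnfn* show libraries of 0 to 4 counts.

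*Mal* (ENSMUSG00000027375.14) lies on chromosome 2 of GRCm38, from 127633226 to 127656695 on the minus strand. In colon at 2 weeks it had 158, 109.9, 343 and 75.9 CPM in BF BSHlow libraries 1 to 4 and 55.5, 113, 96.8 and 70.8 CPM in BF BSHhigh libraries 1 to 4. In non-tumor tissue at 12 weeks it had 2.84, 3.88, 10.5 and 4.08 CPM with BF BSHlow and 0.740, 1.36, 3.13 and 1.04 CPM with BF BSHhigh. In tumors it had 57.6, 48.5, 66.5 and 59.7 CPM with BF BSHlow and 19.4, 12.9 and 27.3 CPM with BF BSHhigh. *Mal* was thus high in all 8 libraries of 2 weeks, low in all 8 of non-tumor tissue and between them in most tumors, and the non-tumor values overlapped neither those of 2 weeks nor those of tumors. From high to low the group means were 172 ± 119 CPM (SD, n = 4) in BF BSHlow and 84.0 ± 25.8 (SD, n = 4) in BF BSHhigh colon at 2 weeks, 58.1 ± 7.40 (SD, n = 4) in BF BSHlow and 19.9 ± 7.22 (SD, n = 3) in BF BSHhigh tumors, and 5.33 ± 3.50 (SD, n = 4) in BF BSHlow and 1.57 ± 1.07 (SD, n = 4) in BF BSHhigh non-tumor tissue. Neighbours in that order overlapped between the 2 groups of 2 weeks, between BF BSHhigh colon at 2 weeks and BF BSHlow tumors, and between the 2 groups of non-tumor tissue.

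*Tmprss11b* (ENSMUSG00000035861.6; chromosome 5, 86657631 to 86676362, minus strand) had 0 counts in all 16 libraries that were not tumors. In BF BSHlow tumors 1 to 4 it had 30, 27, 23 and 18 counts, or 1.45, 1.36, 1.09 and 0.871 CPM. In BF BSHhigh tumors a to c it had 2, 1 and 4 counts, or 0.104, 0.0442 and 0.189 CPM. The BF BSHlow tumors lay above the floor and above every BF BSHhigh tumor, of which 1, tumor c, had more than 3 counts. The mean was 1.19 ± 0.264 CPM (SD, n = 4) in BF BSHlow tumors and 0.112 ± 0.0728 CPM (SD, n = 3) in BF BSHhigh tumors, so *Tmprss11b* was a rare transcript even where it was highest.

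Promoters are shown for *Mal* and *Tmprss11b*, the genes the tumors chose, and for *Sprr1a*, whose promoter held the matches found. They are RefSeq sequences of GRCm38.p6 from 250 bases before to 50 bases after the start site, each written 5′ to 3′ on the strand of the gene, with matches to TGANTCA in capitals:
*Mal* promoter, chr2:127656646-127656945, minus strand: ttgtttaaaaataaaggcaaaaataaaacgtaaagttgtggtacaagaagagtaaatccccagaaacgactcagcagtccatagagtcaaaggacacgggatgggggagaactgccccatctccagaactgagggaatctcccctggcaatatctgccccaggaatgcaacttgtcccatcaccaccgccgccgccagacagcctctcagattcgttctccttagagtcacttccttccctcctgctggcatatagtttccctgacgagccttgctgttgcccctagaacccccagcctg
*Tmprss11b* promoter, chr5:86676249-86676548, minus strand: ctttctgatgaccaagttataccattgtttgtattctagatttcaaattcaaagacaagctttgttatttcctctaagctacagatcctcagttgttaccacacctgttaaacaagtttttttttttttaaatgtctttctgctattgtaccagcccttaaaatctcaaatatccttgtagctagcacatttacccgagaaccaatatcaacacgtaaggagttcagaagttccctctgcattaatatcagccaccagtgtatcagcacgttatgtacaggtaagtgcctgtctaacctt
*Sprr1a* promoter, chr3:92485832-92486131, minus strand: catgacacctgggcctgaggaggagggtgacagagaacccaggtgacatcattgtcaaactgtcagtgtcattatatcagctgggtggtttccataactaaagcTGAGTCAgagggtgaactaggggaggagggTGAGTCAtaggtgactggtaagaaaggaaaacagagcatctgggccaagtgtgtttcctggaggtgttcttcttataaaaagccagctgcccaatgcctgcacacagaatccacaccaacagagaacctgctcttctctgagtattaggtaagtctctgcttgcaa
Promoters of 5 of the 9 genes, *Mal*, *Tmprss11b*, *Sprr1a*, *Sprr3* and *Cnfn*, were searched on both strands for TGANTCA (AP-1), CTTTGAT (TCF/LEF) and TTTATNG (CDX2), motifs picked after the values of the genes had been seen. *Sprr1a* had 2 matches to TGANTCA, at -146 and -116 from the start site, and the other 4 promoters had none. None of the 5 promoters held CTTTGAT or TTTATNG. Of 32851 promoters of this length, 7.81% held TGANTCA, 3.73% held CTTTGAT and 10.9% held TTTATNG. A match describes letters and is not a site of binding. Promoters of *Ly6d*, *Trp63*, *Dsg3* and *Dsc3* were not searched, those of *Dsg3* and *Dsc3* being left out by their chromosome. Whether they hold matches is therefore not known here.

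*Trp63* (ENSMUSG00000022510.14; chromosome 16, 25683763 to 25892102, plus strand) did not pass the filter on low counts in any comparison. *Dsg3* (ENSMUSG00000056632.8; 20510274 to 20547459, plus strand) and *Dsc3* (ENSMUSG00000059898.9; 19960930 to 20002351, minus strand) both lie on chromosome 18. *Dsg3* had 1.69, 2.65, 3.39 and 2.79 CPM in BF BSHlow and 0.912, 1.73, 2.40 and 2.00 CPM in BF BSHhigh colon at 2 weeks. In non-tumor tissue it had 0, 0, 0 and 5 counts with BF BSHlow and 5, 0, 2 and 2 counts with BF BSHhigh. In tumors *Dsg3* had 17.5, 28.8, 18.2 and 18.2 CPM with BF BSHlow and 7.82, 4.42 and 13.3 CPM with BF BSHhigh. Every tumor lay above every library of 2 weeks, and every library of 2 weeks lay above every non-tumor library. The means were 20.7 ± 5.41 CPM (SD, n = 4) in BF BSHlow and 8.53 ± 4.50 (SD, n = 3) in BF BSHhigh tumors, 2.63 ± 0.703 (SD, n = 4) and 1.76 ± 0.629 (SD, n = 4) at 2 weeks, and 0.0809 ± 0.162 (SD, n = 4) and 0.145 ± 0.127 (SD, n = 4) in non-tumor tissue, in the order BF BSHlow, BF BSHhigh. The values overlapped between the strains at 2 weeks and in non-tumor tissue.

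*Dsc3* was the rarer of the 2 cadherin genes, with 3 counts over the 8 libraries of 2 weeks and 56 over the 8 of non-tumor tissue. In non-tumor tissue it had 0.523, 0.694, 0.611 and 0.324 CPM with BF BSHlow and 0.123, 0.434, 0.736 and 0.149 CPM with BF BSHhigh. In tumors it had 1.64, 0.657, 0.472 and 4.26 CPM with BF BSHlow and 0.363, 1.99 and 0.709 CPM with BF BSHhigh. BF BSHlow tumors 1 and 4 and BF BSHhigh tumor b were high and lay above every non-tumor library, whereas the other 4 tumors overlapped non-tumor tissue. The mean was 1.76 ± 1.74 CPM (SD, n = 4) in BF BSHlow and 1.02 ± 0.857 CPM (SD, n = 3) in BF BSHhigh tumors.

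*Sprr1a* (ENSMUSG00000050359.7; 92483952 to 92485895, minus strand) and *Sprr3* (ENSMUSG00000045539.3; 92456502 to 92458720, minus strand) both lie on chromosome 3, and *Cnfn* (ENSMUSG00000063651.11; 25367620 to 25369724, minus strand) lies on chromosome 7. *Sprr1a*, whose promoter held the AP-1 matches, had 8.63, 10, 21.6 and 5.79 CPM in BF BSHlow and 15.2, 7.75, 7.27 and 7.05 CPM in BF BSHhigh colon at 2 weeks. In non-tumor tissue it had 7.78, 1.85, 3.32 and 6.54 CPM with BF BSHlow and 12.9, 5.21, 5.46 and 5.34 CPM with BF BSHhigh. In tumors it had 16.2, 22.2, 42.1 and 9.72 CPM with BF BSHlow and 10.5, 7.78 and 8.89 CPM with BF BSHhigh. BF BSHlow tumor 3 was the highest library, BF BSHlow tumors 1 to 3 lay above every non-tumor library, and BF BSHlow tumors overlapped with colon at 2 weeks, as did all other neighbours in the order of the means. The means ran from 22.6 ± 14 CPM (SD, n = 4) in BF BSHlow tumors through 11.5 ± 6.95 (SD, n = 4) and 9.33 ± 3.95 (SD, n = 4) in BF BSHlow and BF BSHhigh colon at 2 weeks, 9.05 ± 1.35 (SD, n = 3) in BF BSHhigh tumors and 7.24 ± 3.81 (SD, n = 4) in BF BSHhigh non-tumor tissue to 4.87 ± 2.75 (SD, n = 4) in BF BSHlow non-tumor tissue. *Sprr3* and *Cnfn* stayed at or under 2 counts in each library and did not pass the filter on low counts in any comparison.

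*Ly6d* (ENSMUSG00000034634.7; chromosome 15, 74762056 to 74763620, minus strand) had 0.925, 0.579, 0.849 and 2.00 CPM in BF BSHlow and 1.46, 3.83, 1.57 and 0.320 CPM in BF BSHhigh colon at 2 weeks. In non-tumor tissue it had 15.6, 15.9, 10.9 and 3.56 CPM with BF BSHlow and 7.15, 8.00, 32.2 and 13.0 CPM with BF BSHhigh. In tumors it had 20.2, 17.1, 49.7 and 17.9 CPM with BF BSHlow and 56.4, 27.8 and 46.2 CPM with BF BSHhigh. *Ly6d* was low at 2 weeks, and 7 of 8 non-tumor libraries lay above all of those values. The tumors and the non-tumor libraries overlapped through BF BSHhigh non-tumor library 3. The means were 43.5 ± 14.5 CPM (SD, n = 3) in BF BSHhigh and 26.2 ± 15.7 (SD, n = 4) in BF BSHlow tumors, 15.1 ± 11.7 (SD, n = 4) in BF BSHhigh and 11.5 ± 5.75 (SD, n = 4) in BF BSHlow non-tumor tissue, and 1.80 ± 1.47 (SD, n = 4) in BF BSHhigh and 1.09 ± 0.627 (SD, n = 4) in BF BSHlow colon at 2 weeks, with overlap between the strains in each tissue.

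The B cell gene *Cd79a* is given beside *Ly6d*, since the means of both were lower at 2 weeks than in non-tumor tissue, though *Cd79a* overlapped between them. *Cd79a* had 48.5, 42.8, 25.0 and 3.04 CPM in BF BSHlow and 13.9, 17.8, 101 and 25.0 CPM in BF BSHhigh non-tumor libraries. In colon at 2 weeks *Cd79a* had 5.09, 0.496, 1.60 and 2.72 CPM with BF BSHlow and 4.83, 17.97, 2.62 and 4.89 CPM with BF BSHhigh. In tumors *Cd79a* had 0.193, 0.101, 1.09 and 0.0967 CPM with BF BSHlow and 4.14, 0.796 and 1.42 CPM with BF BSHhigh. The non-tumor libraries with the lowest and the highest *Ly6d*, BF BSHlow library 4 and BF BSHhigh library 3, also had the lowest and the highest *Cd79a*, and the part of B cells in the *Ly6d* values of non-tumor tissue was not tested. In tumors *Ly6d* was at 17.1 CPM or more while *Cd79a* was at 4.14 CPM or less. In these bulk libraries, fewer cells of a type and less RNA per cell cannot be told apart. The plot of *Ly6d* against *Cd79a* shows the tumors apart from the other libraries, with high *Ly6d* at low *Cd79a*.

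**Figure D2:**
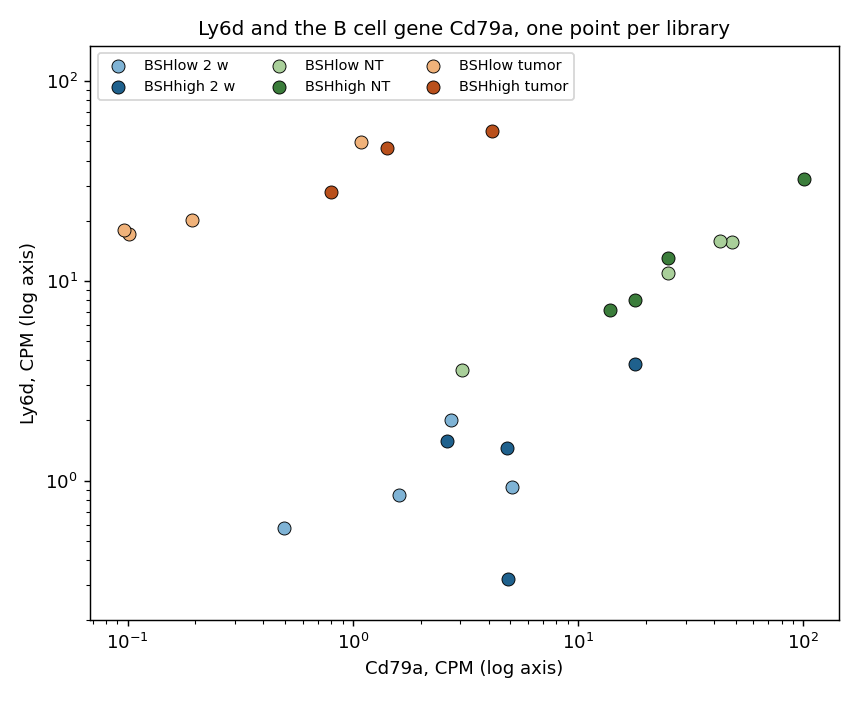
*Ly6d* (CPM, log axis) against *Cd79a* (CPM, log axis), 1 point per library, coloured by group. The 7 tumors lie at *Cd79a* levels of 0.0967 to 4.14 CPM with *Ly6d* between 17.1 and 56.4 CPM, and the non-tumor libraries lie at *Cd79a* levels of 3.04 to 101 CPM.

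The comparison of non-tumor tissue at 12 weeks with colon at 2 weeks used no library that chose the genes. *Mal* fell and *Ly6d* rose, each by a large factor, and *Dsg3* was lower at 12 weeks, while *Sprr1a* did not pass the test. Of the 4 genes with enough counts to be tested, 3 were past the threshold (adjusted p below 0.05 together with a log2 fold change above 1 or below -1), 1 higher and 2 lower, against 26.5% of 15532 genes tested. *Dsg3* passed the filter on low counts only through the libraries of 2 weeks, so it could only come out lower, and the count of 3 supports nothing. *Mal* had a log2 fold change of -5.36 (SE, the standard error of the estimate, 0.399, adjusted p = 2.93e-08 in edgeR's quasi-likelihood test) and was lower in 8 of 8 non-tumor libraries than in every library of 2 weeks. *Dsg3* had 14 counts in non-tumor tissue against 219 at 2 weeks, a ratio of 0.0519 with a 95% counting interval of 0.0279 to 0.0889, again with 8 of 8 libraries below all others. The mean of *Dsg3* in non-tumor tissue lay under the floor, so this ratio is not an exact fold. *Ly6d* had a log2 fold change of 3.22 (SE 0.470, adjusted p = 2.45e-05 in edgeR's quasi-likelihood test), with 7 of 8 libraries above every library of 2 weeks. *Sprr1a* had a log2 fold change of -0.79 (SE 0.341, adjusted p = 0.0537 in edgeR's quasi-likelihood test), with 5 of 8 libraries below all of those at 2 weeks. *Dsc3* did not pass the filter on low counts and had a ratio of 15.1 from 56 against 3 counts, with a 95% counting interval of 4.92 to 75.6. With no filter, and with all 23 libraries in one fit, *Dsc3* was past the threshold and higher.

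Limits of this comparison are that 1 library decided some values and that the tissue differed in other ways. Without BF BSHhigh non-tumor library 1, *Sprr1a* passed the threshold with -1.03 (adjusted p = 0.0148 in edgeR's quasi-likelihood test, from 0.0148 to 0.151 over the alternatives). Age, time on the diet, time of colonization and any batch move together between 2 and 12 weeks and cannot be told apart. The summed level of 5 smooth muscle genes, *Tagln* the most abundant, lay between 6.57 and 196 CPM at 2 weeks and between 1393 and 7081 CPM in non-tumor tissue. The sum of 4 genes of distal hindgut position, *Hoxb13* the most abundant, lay between 6.09 and 95.2 CPM at 2 weeks and between 422 and 784 CPM in non-tumor tissue. The sum of 12 colon epithelium genes lay between 34650 and 46000 CPM at 2 weeks, where *Car1* was the most abundant, and between 14940 and 20830 CPM in non-tumor tissue, and *Krt8* was the most abundant over the 23 libraries. The part of these tissue differences in the values of *Mal*, *Dsg3* and *Ly6d* was not tested.

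Tumors were compared with non-tumor tissue at 12 weeks, with the caveat that the tumor libraries are also those that chose *Mal* and *Tmprss11b*. *Mal*, *Dsg3*, *Sprr1a* and *Ly6d* were higher in tumors, *Dsc3* was high in some of them, and *Tmprss11b* was seen in tumors alone. Of the 9 genes, 6 passed the filter on low counts and all 6 were past the threshold and higher, against 34.9% of 16454 genes tested in either direction. *Tmprss11b* and *Dsg3* passed that filter only through the tumors and had to differ, *Dsc3* does not pass it in non-tumor tissue alone, and the count of 6 supports nothing. *Mal* had a log2 fold change of 3.55 (SE 0.314), given without a p because these tumors chose *Mal*. For *Mal* and for *Dsg3*, 7 of 7 tumors lay above every non-tumor library. *Ly6d* had a log2 fold change of 1.36 (SE 0.383, adjusted p = 0.00527 in edgeR's quasi-likelihood test) and *Sprr1a* one of 1.26 (SE 0.352, adjusted p = 0.00495 in edgeR's quasi-likelihood test), each with 3 of 7 tumors above every non-tumor library. For *Dsc3*, 3 of 7 tumors lay above every non-tumor library, and no fold from a fit is given because of the filter. *Dsc3* was not past the threshold without BF BSHlow tumor 4, without BF BSHhigh tumor b or with limma-voom.

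Within BF BSHlow mice, *Mal*, *Tmprss11b*, *Sprr1a* and *Dsg3* were past the threshold, 4 of the 6 tested against 36.2% of 16454 genes. *Tmprss11b* and *Dsg3* had to be among them, since they passed the filter only through the tumors, and *Mal* and *Tmprss11b* were chosen from these tumors, so this count supports nothing either. *Mal* had a log2 fold change of 3.45 (SE 0.419), given without a p because the choice of *Mal* favours high values in these very tumors. *Sprr1a* rose by a log2 fold change of 2.22 (SE 0.495, adjusted p = 0.00126 in edgeR's quasi-likelihood test). For each of *Mal* and *Sprr1a* 4 of 4 tumors lay above every non-tumor library. *Tmprss11b* was at least 5.99-fold higher in BF BSHlow tumors than the floor of 3 counts per library (0.199 CPM) in non-tumor tissue. *Ly6d* (log2 fold change 1.21, SE 0.528, adjusted p = 0.0578 in edgeR's quasi-likelihood test) did not pass, with 4 of 4 tumors above every non-tumor library. It passed with DESeq2 (1.17, adjusted p = 0.0357) and with all 23 libraries in one edgeR quasi-likelihood fit (adjusted p = 0.0497), and over the alternatives its adjusted p lay between 0.0357 and 0.275. *Dsc3* had 145 counts in tumors against 33 in non-tumor tissue, a ratio of 3.25 with a 95% counting interval of 2.21 to 4.89, and 2 of 4 tumors above. For *Dsg3*, 1693 counts in tumors against 5 in non-tumor tissue gave a ratio of 250.1 with a 95% counting interval of 107 to 771. The non-tumor mean of *Dsg3* (0.0809 CPM) lay under the floor (0.199 CPM), so this ratio is not an exact fold.

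Within BF BSHhigh mice, *Mal*, *Tmprss11b*, *Ly6d* and *Dsg3* were past the threshold, 4 of the 6 tested against 29.4% of 16454 genes. The same holds for this count: *Tmprss11b*, from 7 counts against 0, and *Dsg3* could only come out higher, and the tumors chose *Mal* and *Tmprss11b*. *Mal* had a log2 fold change of 3.64 (SE 0.470), also without a p, since these tumors were part of the contrast that chose it. *Ly6d* rose by a log2 fold change of 1.52 (SE 0.554, adjusted p = 0.0303 in edgeR's quasi-likelihood test). Above every non-tumor library lay 3 of 3 tumors for *Mal* and *Dsg3* and 2 of 3 for *Ly6d*. The mean of *Tmprss11b* in BF BSHhigh tumors lay under the floor, so no fold is given. *Sprr1a* (log2 fold change 0.31, SE 0.511, adjusted p = 0.627 in edgeR's quasi-likelihood test) did not pass, with 0 of 3 tumors above. *Dsc3* had 67 counts against 23, a ratio of 2.87 with a 95% counting interval of 1.76 to 4.83, and 1 of 3 tumors above. For *Dsg3*, 533 counts against 9 gave a ratio of 58.3 with a 95% counting interval of 30.5 to 128. Its non-tumor mean (0.145 CPM) lay under the floor (0.194 CPM) here too, so this ratio is not an exact fold. Whether the tumor difference of a gene was larger with one strain than with the other was not tested, since that difference contains the contrast that chose the genes.

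Single libraries decided some of these values. The *Dsc3* counts of tumors came mostly from BF BSHlow tumor 4 (88 of 145) and BF BSHhigh tumor b (45 of 67). Within BF BSHhigh mice *Ly6d* did not pass without non-tumor library 1 (1.29), 2 (1.31) or 4 (1.46) or without tumor a (1.29) or c (1.47), with adjusted p between 0.0652 and 0.102 in edgeR's quasi-likelihood test in those fits and from 0.00342 to 0.102 over the alternatives, and it was 2.20 without non-tumor library 3. For *Dsg3*, all 5 counts of BF BSHlow non-tumor tissue were in library 4 and 5 of the 9 counts of BF BSHhigh non-tumor tissue in library 1, so its ratios rest on these. The plot of log2 fold changes sets the 5 comparisons side by side for the genes that have a fold change.

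**Figure D3:**
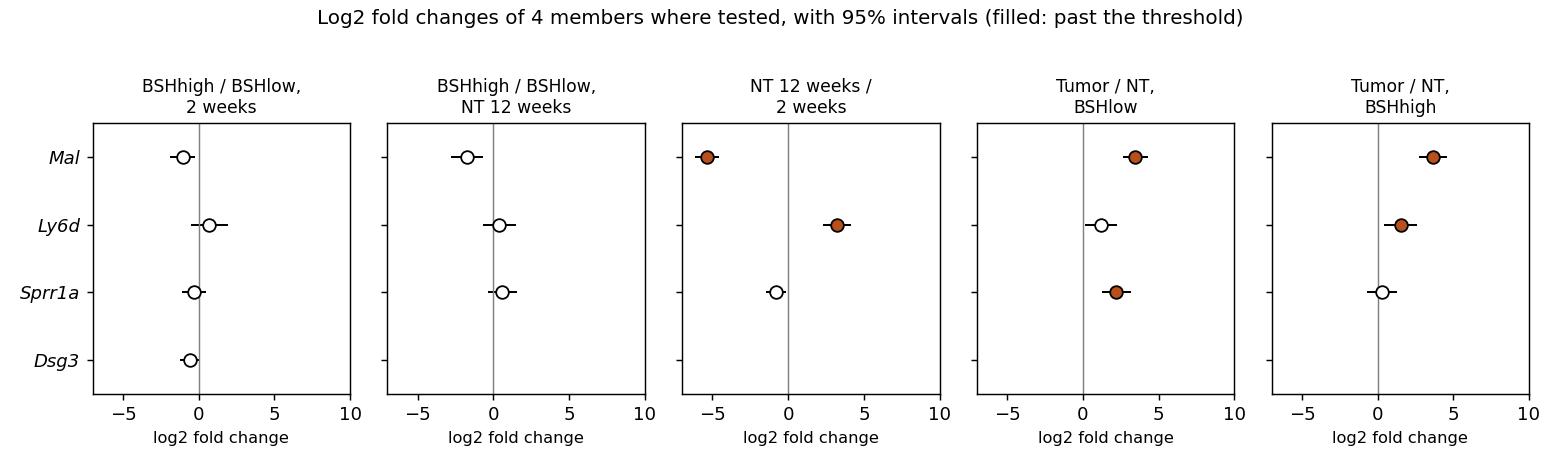
Log2 fold change (horizontal axis) of 4 genes in 5 comparisons, where tested, with approximate 95% intervals as bars; filled points are past the threshold and open points are not, and NT is non-tumor tissue at 12 weeks. *Mal* lies at -5.36 from 2 to 12 weeks and at 3.45 from non-tumor tissue to tumor with BF BSHlow, *Tmprss11b* and *Dsc3* are not drawn, and *Dsg3* is drawn at 2 weeks only, because elsewhere they did not pass the filter in 1 of the tissues compared.

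The effect of the strain was tested in colon at 2 weeks and in non-tumor tissue at 12 weeks, whose libraries did not choose the genes. *Mal* was lower on average with BF BSHhigh in both, and the difference did not pass the test in either. At 2 weeks 0 of the 4 genes tested were past the threshold, against 0.00727% of 13752 genes tested, which is 1 gene, *St3gal4*, named after its values were seen. In non-tumor tissue 0 of the 3 genes tested were past it, against 0% of 14933 genes tested. For the members, DESeq2 and limma-voom also gave 0 in both tissues, and 1 gene in each, *Mal*, had an unadjusted p under 0.05. Over all genes an unadjusted p under 0.05 with the same fold change limit was met by 141 higher and 36 lower genes at 2 weeks and by 145 higher and 68 lower genes in non-tumor tissue. Past the threshold, DESeq2 gave 27 genes at 2 weeks and 59 in non-tumor tissue, and limma-voom gave 1 and 0. The 1 gene at 2 weeks became 37 without BF BSHlow library 4 and 0 without BF BSHlow library 1 or 3 or any of the 4 BF BSHhigh libraries.

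At 2 weeks *Mal* had a log2 fold change of -1.05 (95% interval -1.87 to -0.23, adjusted p = 0.711 in edgeR's quasi-likelihood test), with 2 of 4 BF BSHhigh libraries below every BF BSHlow library, and it was -0.46 without BF BSHlow library 3, the highest. In non-tumor tissue *Mal* had a log2 fold change of -1.75 (95% interval -2.82 to -0.68, adjusted p = 0.408 in edgeR's quasi-likelihood test), with 3 of 4 BF BSHhigh libraries below every BF BSHlow library, and it was -1.19 without BF BSHlow library 3 and -2.33 without BF BSHhigh library 3. The difference between these effects was -0.67 (SE 0.750, adjusted p = 0.900 in edgeR's quasi-likelihood test). *Ly6d* had log2 fold changes of 0.69 (SE 0.626) at 2 weeks and 0.40 (SE 0.565) in non-tumor tissue, and *Sprr1a* had -0.32 (SE 0.405) and 0.58 (SE 0.482). These are not stable: *Ly6d* was at 0.02 at 2 weeks without BF BSHhigh library 2 and at -0.29 in non-tumor tissue without BF BSHhigh library 3, and *Sprr1a* was at 0.18 at 2 weeks without BF BSHlow library 3. *Dsg3* had -0.58 (SE 0.344) at 2 weeks and was too low to be tested in non-tumor tissue. Adjusted p for *Ly6d*, *Sprr1a* and *Dsg3* lay between 0.751 and 0.929 in edgeR's quasi-likelihood test.

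In tumors, the contrast that chose the genes, the values are described without a test. *Mal* was 2.92-fold lower in the mean of BF BSHhigh than of BF BSHlow tumors, *Sprr1a* 2.50-fold and *Dsg3* 2.42-fold, whereas *Ly6d* was 1.66-fold higher. For *Dsc3* no direction is given, since the BF BSHlow mean rests on tumor 4 (4.26 CPM) and the other values overlap. *Tmprss11b* had 7 counts over the BF BSHhigh tumors and 98 over the BF BSHlow tumors, and no fold is given because the BF BSHhigh mean lay under the floor. For 3 of the 6 genes that passed the filter, *Mal*, *Tmprss11b* and *Dsg3*, every BF BSHhigh tumor lay below every BF BSHlow tumor, and the same held for 3.49% of 15325 genes. Nothing is read from that count, since the contrast fixed the direction of 2 of the 3. In it 0.476% of 15325 genes were past the threshold, 71 higher and 2 lower. At the edge of the choice, *Tmprss11b* and *Mal* (log2 fold change -1.57) both had an adjusted p of 0.0481 in edgeR's quasi-likelihood test, and just outside lay *Dsg4* (-2.37, adjusted p = 0.0536) and *Mfap3l* (-1.41, adjusted p = 0.0553). The number past the threshold was 0 without BF BSHlow tumor 1, 3 or 4, 3 without BF BSHlow tumor 2, 6, 1 and 240 without BF BSHhigh tumors a, b and c, 534 with DESeq2 and 41 with limma-voom.

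Cell type genes are given beside these tumor values. *Muc2*, the goblet cell mucin, had 27.5, 33.0, 20.4 and 9.24 CPM in BF BSHlow and 1119, 303 and 144 CPM in BF BSHhigh tumors, and the anion exchanger *Slc26a3* of mature colonocytes had 0.482, 0.303, 0 and 0.193 CPM and 39.2, 15.6 and 3.40 CPM. Of the 12 colon epithelium genes 1, *Slc26a3*, was past the threshold between the strains, and *Muc2* was not (adjusted p = 0.0511 in edgeR's quasi-likelihood test). The median log2 fold change of the 12 was 0.72 beside -0.03 for all genes tested. *Krt20* (21.4 and 227 CPM in the means of BF BSHlow and BF BSHhigh tumors), *Cdx2* (0.921 and 11.1 CPM) and *Cdx1* (36.2 and 81.8 CPM) were not past the threshold but had 3 of 3 BF BSHhigh tumors above every BF BSHlow tumor, while *Car1* (65.3 and 66.6 CPM) and *Krt18* (778 and 617 CPM) did not. The share of all genes with that order was not counted, so nothing is read from it. Over all genes, 723 were higher and 118 lower at an unadjusted p under 0.05 (edgeR's quasi-likelihood test) with the same fold change limit. The summed level of the 12 colon epithelium genes was 5092, 7868, 7739 and 4213 CPM in BF BSHlow and 10650, 6318 and 6270 CPM in BF BSHhigh tumors. The 7 T cell genes, *Cd3g* the most abundant over all libraries, summed to 19.1, 6.97, 21.4 and 7.31 CPM in BF BSHlow and 47.8, 38.5 and 34.8 CPM in BF BSHhigh tumors. None of the 7 T cell genes was past the threshold, and the T cell sum of every BF BSHhigh tumor was above that of every BF BSHlow tumor, the reverse of *Mal*, *Tmprss11b* and *Dsg3*. Nothing is read from the order of these sums either. The part of the tissue make-up in the values of *Mal*, *Tmprss11b* and *Dsg3* was not tested.

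Other genes of stratified epithelium were followed in lists. The list of 11 keratinocyte genes, of which 3 are *Trp63*, *Dsg3* and *Dsc3*, had *Krt14* as its most abundant gene over the 23 libraries and *Krt1* never above the floor. Its summed level was 90.6, 174, 142 and 79.2 CPM in BF BSHlow and 42.8, 37.7 and 55.6 CPM in BF BSHhigh tumors, against 4.11 to 6.64 CPM in non-tumor tissue and 5.02 to 8.17 CPM at 2 weeks. In tumors against non-tumor tissue 6 of its 8 genes tested were higher, among them *Dsg3*, *Dsc3* and *Ivl*, beside 34.9% of all genes tested in either direction. Of these 6, *Krt14* alone also passes the filter in non-tumor tissue by itself, so the count supports nothing. The list had a median log2 fold change of 4.16, or 2.65 with *Ivl* at its bound, beside 0.04 for all genes tested. *Krt14*, a basal keratin, had a log2 fold change of 4.61 (SE 0.356), and the mucosal suprabasal keratins *Krt4* and *Krt13* had means of 15.6 and 6.13 CPM in tumors and 0.0897 and 0.409 CPM in non-tumor tissue. The keratin genes *Krt14*, *Krt15*, *Krt17*, *Krt4* and *Krt13* were thus high in tumors beside *Dsg3* while *Trp63* and *Krt5* stayed near 0, as the map of stratified epithelial genes shows. Other keratin genes did not rise, as given below.

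**Figure D4:**
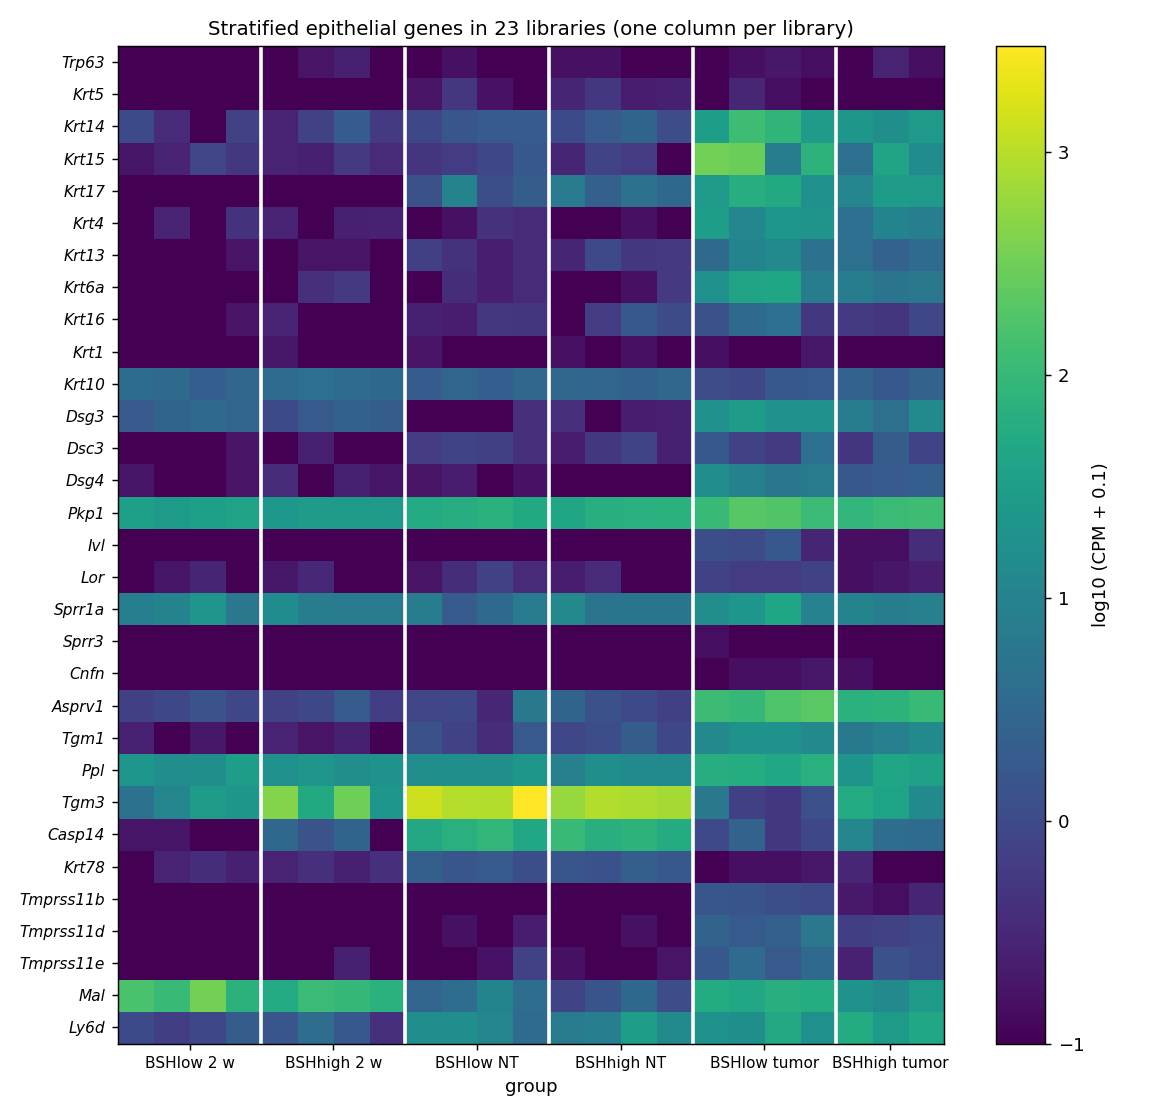
Level of 31 genes of stratified epithelium (rows of the map) in 23 libraries (columns, grouped and divided by white lines), as log10 of CPM plus 0.1 in colour. *Krt14*, *Krt15*, *Krt4*, *Dsg3*, *Dsg4* and *Asprv1* are bright in tumors, *Tgm3* and *Casp14* in non-tumor tissue, and *Trp63*, *Krt5*, *Sprr3* and *Cnfn* are dark throughout.

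In the following lists the most abundant gene is that of the mean over the 23 libraries, the share of genes past the threshold over all genes tested was 34.9%, and genes that passed the filter through 1 tissue had to differ, so the counts describe the lists and support nothing. Among 14 basal epithelial genes, 13 were tested in tumors against non-tumor tissue, 5 rose and 2 fell (median log2 fold change 0.38 beside 0.04 for all genes), with *Krt15* at means of 110.6 CPM in tumors and 0.586 CPM in non-tumor tissue, *Krt17* at a log2 fold change of 2.91 and *Dst*, a hemidesmosome linker, at -1.85. *Itga6* was the most abundant gene of that list, and 9 of the 14 exceeded 10 CPM in every library. Of 9 suprabasal keratins, 6 were tested, 3 rose and 1 fell (median 2.51), with *Krt6a*, the most abundant, at means of 18.2 CPM in tumors and 0.149 CPM in non-tumor tissue. Within BF BSHhigh mice *Krt78* fell, with means of 0.0691 CPM in tumors and 1.62 CPM in non-tumor tissue. *Krt10* and *Krt16* were not past the threshold there, and *Krt1* and *Krt2* never exceeded the floor. Of 21 cornified envelope genes, 13 were tested, 5 rose and 5 fell (median 0.41), with *Asprv1*, a skin protease, at 6.09 and *Tgm1*, a transglutaminase, at 3.57 against *Tgm3*, the most abundant, at -7.01 and *Casp14* at -4.70. Of 14 other genes of the family of *Sprr1a*, 5 were tested, 2 rose and 3 fell (median -2.55), with *Sprr2b* at means of 7.24 CPM in tumors and 0.301 CPM in non-tumor tissue and *Sprr2a2*, the most abundant, at a log2 fold change of -3.18. In the mean of both strains *Sprr1a* thus rose while its abundant relatives *Sprr2a1* (-3.56), *Sprr2a2* and *Sprr2a3* (-2.55) fell. Within the strains *Sprr1a* was past the threshold with BF BSHlow (2.22) but not with BF BSHhigh (0.31). Near-identical copies make the split of reads among *Sprr2a1*, *Sprr2a2* and *Sprr2a3* uncertain.

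Of 13 other desmosome genes, which encode the partners of *Dsg3* and *Dsc3*, 10 were tested in tumors against non-tumor tissue, 3 rose and 1 fell (median log2 fold change 0.21), beside 34.9% of all genes tested past the threshold, with *Dsg4* at means of 6.09 CPM in tumors and 0.0319 CPM in non-tumor tissue, the plakophilin *Pkp1* at 1.08 and *Dsg2*, the desmoglein of simple epithelia, at -1.09, and *Dsp* the most abundant. Of 6 further genes of the cluster of *Tmprss11b*, 2 were tested and both were higher, having passed the filter only through the tumors, *Tmprss11d*, the most abundant, from a mean under the floor to between 0.570 and 5.90 CPM in tumors, and *Tmprss11e*. All 12 genes of the family of *Mal* were tested, 2 rose and 2 fell (median -0.49), which is close to the 34.9% of all genes tested, with *Cmtm3* at 1.45, *Cmtm7* at 1.12, *Mall* at -2.68 and *Cmtm4*, the most abundant, at -1.76. Of 22 genes of the family of *Ly6d*, 16 were tested, 6 rose and 6 fell (median 0.07), with *Lypd6* at means of 3.14 CPM in tumors and 0.247 CPM in non-tumor tissue and *Lypd8*, the most abundant, at a log2 fold change of -4.26. Of the 2 relatives of *Trp63*, *Trp53* rose with 1.59 and *Trp73* was too low to test. The bar chart of these families shows genes on each side in 7 of the 9 lists, and untested genes in 8.

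**Figure D5:**
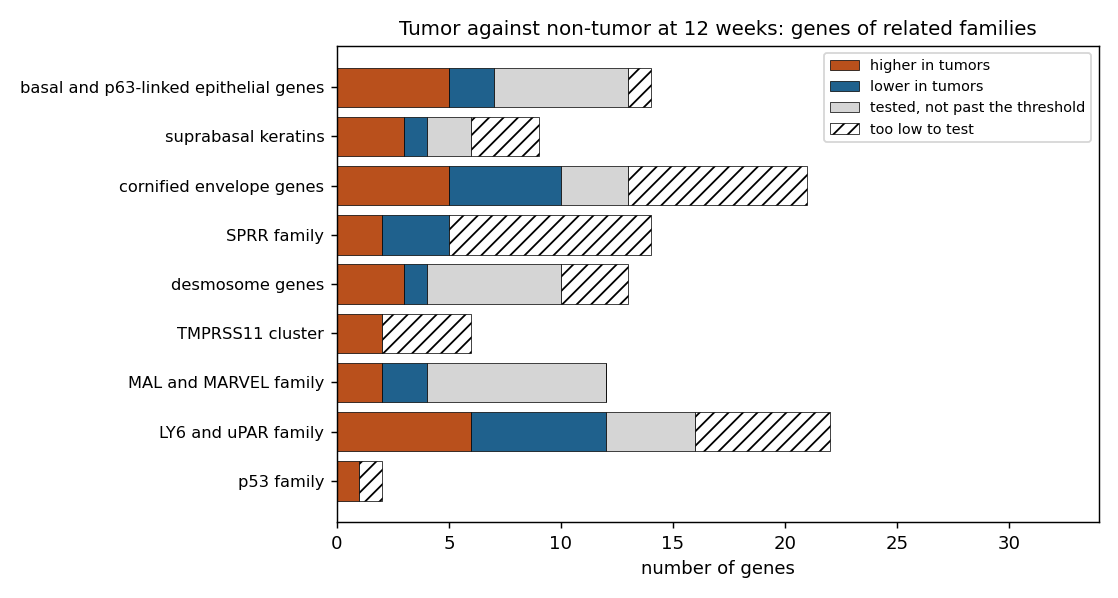
Number of genes (horizontal axis) in 9 lists of related genes that were higher, lower or not past the threshold in tumors against non-tumor tissue at 12 weeks, or too low to test (hatched). The list of cornified envelope genes has 5 higher and 5 lower, and the LY6 and uPAR family has 6 and 6.

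Further lists of cell types and positions were read in tumors against non-tumor tissue beside *Mal*, *Ly6d* and *Dsg3*, and their counts are to be read beside the 34.9% of all genes tested that were past the threshold. *Cd79a* fell with a log2 fold change of -5.25, smooth muscle genes fell in 5 of 5 and colon epithelium genes in 8 of 12 with 1 higher. Of 9 anal canal or skin appendage genes 2 were tested, with *Scd3*, a sebaceous gland desaturase, at 1.92 to 4.73 CPM in tumors and at or under 0.0620 CPM in every non-tumor library, and *Mgst1*, the most abundant, lower, while *Krt71*, *Krt25*, *Awat1*, *Msx2* and *Hoxc13* never exceeded the floor. Of 8 skeletal muscle genes 5 were tested, 1 rose and 3 fell, with *Acta1* the most abundant. Of 7 Schwann cell and myelin genes, which bear on *Mal*, 7 were tested, 1 rose and 4 fell, with *Pmp22* the most abundant, and their sum was 85.9 to 236 CPM in tumors against 407 to 815 CPM in non-tumor tissue. Of 7 T cell genes 1 rose and 1 fell. Of 5 urothelium genes 4 were tested, 1 rose and 2 fell, with *Upk1a* the most abundant over the 23 libraries and *Upk3a* in tumors, at means of 12.1 CPM with BF BSHlow and 15.2 CPM with BF BSHhigh. Of 4 distal hindgut position genes 3 fell. The part of any of these in the values of *Mal*, *Ly6d* and *Dsg3* was not tested.

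Over the 23 libraries and 14391 genes with a mean of at least 1 CPM, the pattern most like that of each gene was described by Pearson's r of log2 CPM, with no p. The libraries fall into tissues, and r mostly reads the differences among them. For *Mal* the 5 nearest genes were *Ube2q1* (0.926), *Rhbdf1* (0.926), *Rnf8* (0.920), *AA986860* (0.917) and *Klhdc3* (0.907). For *Ly6d* they were *Sulf1* (0.977), *Clu* (0.967), *Relt* (0.966), *Csf2rb* (0.959) and *Msn* (0.958). For *Sprr1a* they were *Dusp10* (0.864), *Osbpl3* (0.816), *Ankrd50* (0.779), *Fosl1* (0.758) and *Rab26os* (0.755). For *Dsg3* they were *Samd5* (0.959), *Hmga1* (0.954), *Rdh1* (0.954), *Gata5* (0.952) and *Arnt2* (0.950). *Gata5*, for example, had means of 3.52 and 4.21 CPM at 2 weeks, 0.611 and 0.771 CPM in non-tumor tissue and 31.7 and 34.1 CPM in tumors, in the order BF BSHlow, BF BSHhigh, so its tumor means did not differ between the strains in the way those of *Dsg3* did. Ranked by Spearman's rho instead, 2, 3, 3 and 2 of the 5 nearest genes of *Mal*, *Ly6d*, *Sprr1a* and *Dsg3* were the same, and *Gata5* was not among the 5 of *Dsg3*.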

How the data were processed

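The authors used cutadapt for trimming, STAR for alignment (genome mm10), Picard, and RSEM, which estimated expected counts per gene, and these expected counts were deposited without normalization; versions were not given. Here they were rounded to whole numbers, since 4.24% of values were not whole. One gene, *Fgf6*, was left out because a cell holds text, leaving 55449 genes. Comparisons were fitted with edgeR 4.0.16 in R 4.3.3 on the libraries of the groups compared. The comparisons of tumor with non-tumor tissue within a strain were contrasts in 1 fit of all 15 libraries of 12 weeks, with a shared filter and spread. In each fit low counts were filtered by filterByExpr and library sizes were adjusted by TMM. The p from the quasi-likelihood F test was adjusted over all tested genes by Benjamini and Hochberg. TMM factors over the 23 libraries lay between 0.74 and 0.93 at 2 weeks, between 0.95 and 1.02 in non-tumor tissue and between 1.17 and 1.36 in tumors. Alternatives used DESeq2 1.42.0 and limma-voom 3.58.1. The code was checked on simulated data: at 2 weeks edgeR recovered 187 of 200 changed genes, all with the right sign, with 7 false calls.

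Named in each comparison are those of the 9 genes that were tested in it. From lists of related genes and of cell type markers, those that passed by largest fold change and the most abundant are named. Further genes are named because they bear on a statement. The genes and the lists were chosen with earlier results of these data known. Positions and exon lengths are from GENCODE M21, and promoters are RefSeq on GRCm38.p6.

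The data are 3 or 4 libraries per group from bulk tissue, and replicates vary more than counting alone allows (chi-square per degree of freedom 16.6 to 126 over 33 pairs). Intervals and floors of counts cover counting error only. The BF BSHhigh tumor columns carry repeated header names. Diet, bacteria and *Apc* deletion have no group without them. Protein was not analysed here.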

Additional observations from a re-analysis of the deposited data

Results flagged for a closer look

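In 6 of 24 gene and group pairs tested, 1 library lay apart from the other 3, where chance gives about 1 in 20 if values are normally distributed, which was not tested. *Mal* had 10.52 CPM in BF BSHlow non-tumor library 3, with the others at or under 4.079. *Ly6d* had 49.7 CPM in BF BSHlow tumor 3, with the others at or under 20.2. *Sprr1a* had 15.24 CPM in BF BSHhigh library 1 at 2 weeks, with the others at or under 7.746, and 12.95 CPM in BF BSHhigh non-tumor library 1, with the others at or under 5.46. *Dsg3* had 0.3238 CPM in BF BSHlow non-tumor library 4, with the others at 0, so that any count there lies apart, and 28.76 CPM in BF BSHlow tumor 2, with the others at or under 18.19. All libraries were kept.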

How the results depend on the processing

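Of the 9 genes, 0 passed the threshold between strains at 2 weeks or in non-tumor tissue under every alternative. Over all genes at 2 weeks, 1 passed, against 27 with DESeq2, 5 with no filter on low counts and 2 with all 23 libraries in one fit. In non-tumor tissue 0 passed, against 59 with DESeq2, 1 with all 23 libraries in one fit and 1 with the replicate block. In tumors 73 passed, against 534 with DESeq2, 41 with limma-voom, 320 with no filter and 578 with all 23 libraries in one fit.

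For tumor against non-tumor tissue 6 of the 9 passed, against 5 with limma-voom, which loses *Dsc3*. Within BF BSHlow 4 passed, against 6 with DESeq2 and with all 23 libraries in one fit, which add *Ly6d* and *Dsc3*. For non-tumor tissue against 2 weeks 3 passed, against 4 with no filter and with all 23 libraries in one fit, which add *Dsc3*. Between strains the sign was the same in 13 of 14 alternatives for *Ly6d* in non-tumor tissue and for *Sprr1a* at 2 weeks, and in 14 of 14 for *Mal* in both. By Spearman instead of Pearson, 2, 3, 3 and 2 of 5 nearest genes were the same for *Mal*, *Ly6d*, *Sprr1a* and *Dsg3*.

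Leaving out 1 library gave 0 to 37 genes at 2 weeks, 0 in non-tumor tissue and 0 to 240 in tumors between strains. It gave 5646 to 6054 genes and 5 to 6 of the 9 for tumor against non-tumor tissue, 5756 to 5938 and 4 to 5 within BF BSHlow, 4210 to 4947 and 3 to 4 within BF BSHhigh, and 4085 to 4325 and 3 to 4 for non-tumor tissue against 2 weeks.

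With the replicate block 1 gene passed at 2 weeks, 5009 for tumor against non-tumor tissue within BF BSHlow and 4088 for non-tumor tissue against 2 weeks, with 0, 4 and 3 of the 9. The block fit within BF BSHlow held BF BSHlow libraries alone, so it differed from the main fit in its libraries as well. Whether the numbers pair libraries cannot be told from so few libraries per group. Correlations of paired deviations lay between -0.197 and 0.298. Most like the one of their own number were 3 of 8 libraries at 2 weeks and 2 of 8 in non-tumor tissue. The same held for 4 of 8 in tumor and non-tumor tissue of BF BSHlow and 1 of 16 in non-tumor tissue and 2 weeks. The main fits treated tumor and non-tumor libraries as independent, and whether they share mice is not known.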
